A study of Homo sapiens with 16 samples.

Results

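The dual-specificity MAPK phosphatases are the enzymes that switch off mitogen-activated protein kinases (MAPKs), and 10 of their genes were followed here through the ischemic response of a glioblastoma (GBM) cell line. The members were named by symbol as *DUSP1*, *DUSP2*, *DUSP4*, *DUSP5*, *DUSP6*, *DUSP7*, *DUSP8*, *DUSP10*, *DUSP14* and *DUSP16*. Of the 10, 8 were among the 13559 genes listed for the first experiment and the same 8 were among the 14024 genes listed for the second. The expression of *DUSP8* and *DUSP14* was not analysed here.

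LN229, a human GBM line, was cultured in a regular or an ischemic condition, and mRNA was sequenced in 2 experiments with 2 libraries in each of 8 groups. In the first experiment, untreated cells of the ischemic condition were compared with untreated cells of the regular condition. In the second, both conditions were combined with DMSO (the solvent), VX745 (an inhibitor of the kinase p38α) or MK25 (an inhibitor of MK2, a kinase that p38 activates). The study asked how ischemic stress and p38-MK2 signaling shape gene expression in these cells. The regular condition was complete DMEM with 10% fetal bovine serum (FBS), and the ischemic condition combined 2 mM glucose, 0.1 mM glutamine and 1% FBS with about 1% oxygen. All 16 libraries came from this 1 line, which was bought from ATCC and by the methods not authenticated again, and the labels give neither the dose of an inhibitor nor the time of culture for these libraries. Nothing in the labels says that the 2 libraries of a group came from separate cultures, so the spread between libraries may be technical. The model used here draws each gene's variance towards that of genes at a similar level. A p-value therefore measures this pooled spread and not that of the gene's own libraries alone.

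The libraries held 20122017 to 37562668 reads on the listed genes. Of 10 glioma line markers, all 10 were listed in both experiments, *VIM* (vimentin) among the most abundant at a level of 11.1 to 12.8 log2 normalized CPM, while *GFAP*, the astrocyte filament protein, lay between -0.36 and 1.06. Of 10 markers of blood, endothelium, epithelium, neurons and oligodendrocytes, 0 were listed. In bulk RNA, fewer cells of one state and less RNA per cell cannot be told apart.

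A MAPK is active when a threonine and a tyrosine in its activation loop are both phosphorylated, and a dual-specificity phosphatase removes both phosphates. The inducible nuclear members DUSP1, DUSP2, DUSP4 and DUSP5 are encoded by immediate or early response genes, DUSP6 and DUSP7 are cytoplasmic and prefer the kinase ERK, and DUSP8, DUSP10 and DUSP16 prefer the stress kinases p38 and JNK. Many of these genes are themselves switched on by the MAPK pathways that their products turn off, which makes them negative feedback regulators, and DUSP5 and DUSP6 are widely read as markers of ERK activity.

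The promoter sequences of 3 members are shown because they differ in the elements they carry, for *DUSP1* and *DUSP10*, which rose in the ischemic condition, and for *DUSP2*, which fell. Each is the stretch of 250 bases before the gene's start in RefSeq (GRCh38.p14, minus strand, written 5′ to 3′), with capitals for a cAMP response element (TGACGTCA) or its core (TGACG) and for an E-box (CACGTG). The *DUSP1* stretch is chr5:172771196-172771445, that of *DUSP2* is chr2:96145441-96145690, and that of *DUSP10* is chr1:221742090-221742339.
DUSP1: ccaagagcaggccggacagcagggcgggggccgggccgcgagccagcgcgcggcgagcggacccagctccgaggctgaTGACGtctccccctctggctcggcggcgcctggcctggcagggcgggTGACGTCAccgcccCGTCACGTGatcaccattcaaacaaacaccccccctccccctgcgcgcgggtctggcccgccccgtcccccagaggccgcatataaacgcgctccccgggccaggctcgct
DUSP2: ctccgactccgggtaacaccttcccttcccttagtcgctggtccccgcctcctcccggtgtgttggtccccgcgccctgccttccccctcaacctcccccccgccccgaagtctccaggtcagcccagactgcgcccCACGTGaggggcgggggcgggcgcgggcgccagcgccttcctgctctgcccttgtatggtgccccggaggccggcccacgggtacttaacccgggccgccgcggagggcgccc
DUSP10: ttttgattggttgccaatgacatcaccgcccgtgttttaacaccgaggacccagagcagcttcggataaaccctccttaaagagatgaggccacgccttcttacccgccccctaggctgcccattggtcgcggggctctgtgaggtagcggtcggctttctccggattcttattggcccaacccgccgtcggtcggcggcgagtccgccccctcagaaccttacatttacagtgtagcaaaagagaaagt

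The *DUSP1* stretch held 1 full cAMP response element, which starts 125 bases before the gene, and 1 E-box 108 bases before it. It also held 4 matches of the core TGACG on either strand, 2 of them inside the full element and 1 overlapping the E-box. The *DUSP2* stretch held an E-box at 113 bases before the gene and no cAMP response element. Every E-box also holds the core of the hypoxia response element, ACGTG, on both strands. The *DUSP10* stretch had no match to these motifs, to the AP-1 site TGANTCA, to the C/EBP-ATF site TGATGNAA or to the CArG box, which says only that these letters are not in this window. Over 35116 RefSeq promoters of the same length, searched on both strands, 1.65% held TGACGTCA, 21.2% TGACG, 6.34% CACGTG, 18.5% ACGTG, 6.57% TGANTCA, 3.14% TGATGNAA and 1.16% a CArG box. Of the 10 members, 8 had an entry in the RefSeq promoter table. *DUSP10* had 2 entries, of which only the one at the annotated start of the gene was searched. *DUSP8* held 2 full cAMP response elements, and *DUSP6*, *DUSP7*, *DUSP14* and *DUSP16* held no match to any of the 7 motifs. The windows of *DUSP8* and *DUSP14* precede start sites inside the annotated gene, so both windows lie within the gene and not before it.

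Under the ischemic condition the inducible *DUSP1* and *DUSP5*, the ERK phosphatase *DUSP6* and the p38 and JNK phosphatase *DUSP10* rose in both experiments, whereas the nuclear *DUSP2* fell in both, although its mean level was under the 1 CPM filter tried as an alternative, which removed it. *DUSP4* and *DUSP16* did not pass the test in either. Of the 8 members, 4 rose and 1 fell among untreated cells, where 41.4% of all genes changed (21.3% higher and 20.2% lower). With DMSO, 4 rose and 2 fell, and 36.0% of all genes changed (18.1% higher and 17.9% lower). A gene was counted as changed where its difference was 1.5-fold or more and its Benjamini-Hochberg adjusted p in limma, a linear model fitted to every listed gene, lay under 0.05. The median log2 difference of the 8 members was 0.46 without inhibitors and 0.85 with DMSO, against -0.01 over all genes in both. In all, 5 of 8 members (62.5%) changed in the same direction in both experiments, as did 3811 of the 13475 genes listed in both (28.3%).

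*DUSP1* (chr5:172768096-172771195), an early response phosphatase of p38, JNK and ERK, had the largest difference of the members. Its level in untreated cells was 5.51 and 6.63 log2 normalized CPM under the ischemic condition and 2.49 and 2.64 under the regular one. The groups did not overlap, and ischemic replicate 2 stood above replicate 1. The difference was 3.50 on the log2 scale (SE 0.25, adjusted p = 9.46e-08, limma). The ischemic libraries had an SD of 0.79, and the SE of the fit draws on the spread of other genes too. With DMSO the levels were 6.86 and 6.95 against 3.16 and 2.93, a log2 difference of 3.87 (SE 0.09, adjusted p = 1.61e-16, limma). The ischemic libraries with DMSO lay close together, and recovered reads rose from 278 and 186 per regular library to 2855 and 3643.

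*DUSP5* (chr10:110497907-110511533), a nuclear phosphatase that acts on ERK, had levels of 5.42 and 5.28 in untreated ischemic cells and of 3.87 and 3.796 in untreated regular cells. The log2 difference was 1.52 (SE 0.09, adjusted p = 3.07e-08, limma). In the second experiment the DMSO libraries read 7.27 and 7.27 in the ischemic and 4.30 and 4.38 in the regular condition. These groups did not overlap either, and the log2 difference was 2.93 (SE 0.07, adjusted p = 1.35e-16, limma).

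*DUSP6* (chr12:89347235-89352501) encodes the cytoplasmic ERK phosphatase. It shares exon bases with a gene on the opposite strand, and reads of the pair cannot be told apart here because the library kit does not mark strand. Its levels were 7.62 and 7.22 in untreated ischemic libraries and 6.64 and 6.66 in regular ones, a log2 difference of 0.77 (SE 0.10, adjusted p = 2.76e-05, limma). Without ischemic replicate 1 the difference was 0.57, under the 1.5-fold threshold. With DMSO it was 1.61 (SE 0.06, adjusted p = 1.41e-13, limma), from levels of 8.50 and 8.61 against 6.93 and 6.97, and the groups were apart in both experiments.

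*DUSP10* (chr1:221701424-221742089), the p38 and JNK phosphatase, had untreated levels of 5.82 and 6.79 in the ischemic and of 4.74 and 4.74 in the regular condition. The ischemic libraries were spread over almost 1 log2 unit (SD 0.69), yet both lay above the regular ones. The difference was 1.56 (SE 0.21, adjusted p = 3.12e-05, limma), with an SE that draws on other genes too. With DMSO the levels were 7.33 and 7.38 against 5.23 and 5.42, which gave 2.03 (SE 0.07, adjusted p = 1.22e-13, limma). The study displayed *DUSP1* and *DUSP10* among p38 signaling genes of the first experiment, so their direction there is not independent evidence.

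*DUSP2* (chr2:96143169-96145440), a nuclear phosphatase best known from activated immune cells, fell. It was also the scarcest member, with 5 and 6 reads in the untreated ischemic libraries and 29 and 45 in the regular ones, against a floor of 3 reads. The levels were -1.93 and -1.45 against 0.33 and 0.75 log2 normalized CPM, a difference of -2.23 (SE 0.38, adjusted p = 0.000198, limma). With DMSO the levels were -0.64 and -0.70 against 0.96 and 0.45, a difference of -1.38 (SE 0.34, adjusted p = 0.0015, limma). Both experiments had the ischemic libraries below the regular ones without overlap. Each deposited value includes an offset of 1.49 to 2.62 reads, which makes differences at so few reads smaller than they are.

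*DUSP7* (chr3:52048919-52056571), the second cytoplasmic ERK phosphatase, went the other way from *DUSP6*. Its levels were 5.67 and 5.74 in untreated ischemic and 6.12 and 6.23 in regular libraries, a log2 difference of -0.47 (SE 0.08, adjusted p = 0.000142, limma) that is under 1.5-fold. With DMSO it fell, from 6.22 and 6.29 to 5.51 and 5.59, a log2 difference of -0.70 (SE 0.08, adjusted p = 3.10e-07, limma). The groups did not overlap in either experiment.

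*DUSP4*, an ERK, JNK and p38 phosphatase of the nucleus, and *DUSP16*, which prefers JNK and p38, did not pass the test in either experiment. *DUSP4* (chr8:29333064-29350684) read 7.37 and 7.35 against 7.44 and 7.45 in untreated cells, and its log2 difference had a 95% interval from -0.22 to 0.06. With DMSO that interval ran from -0.04 to 0.22. *DUSP16* (chr12:12473282-12562863) read 4.75 and 4.83 against 4.63 and 4.63 in untreated cells, with an interval of the log2 difference from -0.04 to 0.35, and from -0.23 to 0.15 with DMSO. Each of these 4 intervals lay within 1.5-fold in either direction.

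**Figure D1:**
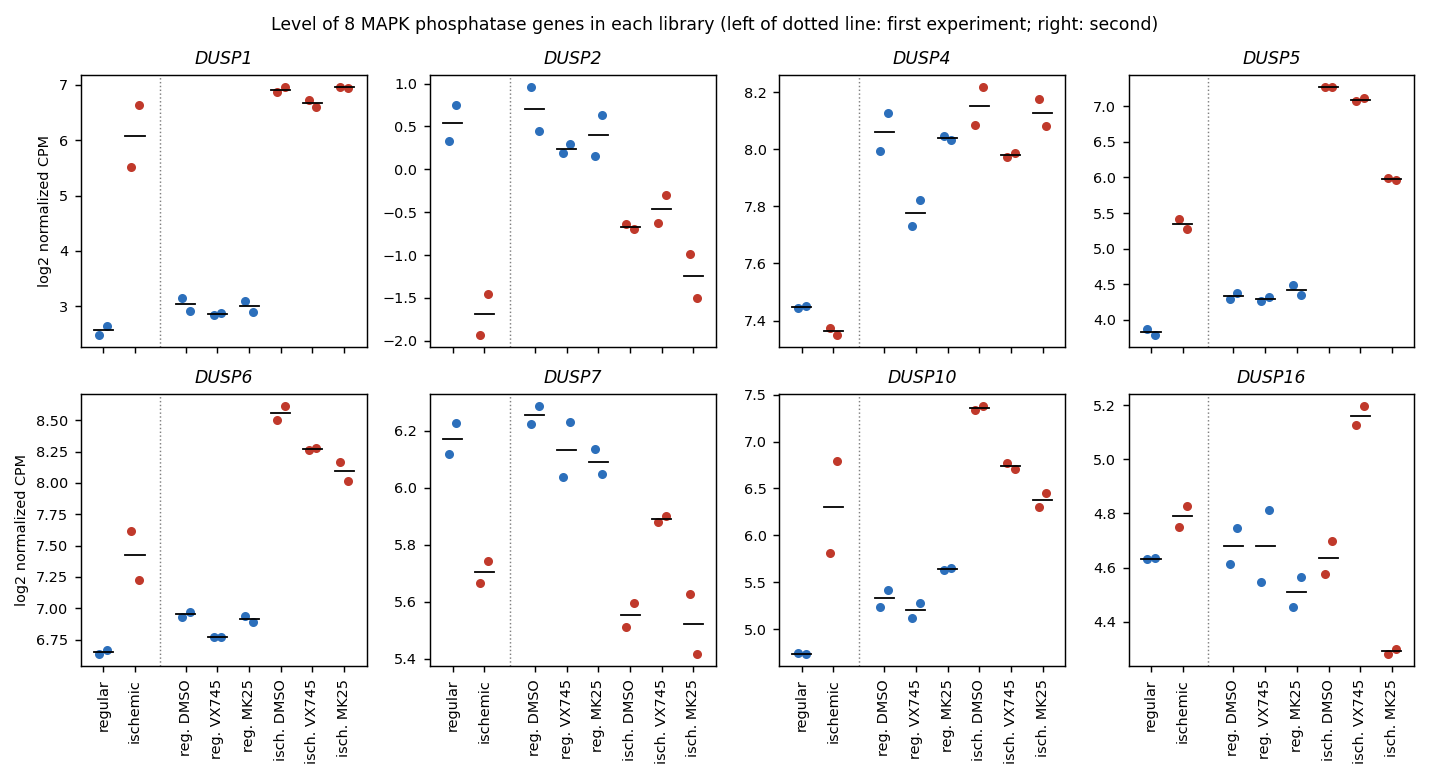
Level of the 8 listed members in each of the 16 libraries, in log2 normalized CPM, with a dot per library and a line at the mean of each group (n = 2). Blue is the regular and red the ischemic condition, the vertical scale differs between genes, and the dotted line parts the 2 separately normalized experiments. Within each experiment red dots stand above blue for *DUSP1*, *DUSP5*, *DUSP6* and *DUSP10* and below for *DUSP2* and *DUSP7*, and in the second experiment the red dots of *DUSP5* and *DUSP10* are lowest with MK25.

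Compared per length, the abundance order of the phosphatases differed between conditions, and in part between experiments. In log2 normalized CPM per kilobase of exon, *DUSP4* had the highest level in regular cells with DMSO at 5.20, next to *DUSP6* at 5.00, while *DUSP10* stood at 3.83, *DUSP7* at 3.75, *DUSP5* at 2.999 and *DUSP1* at 2.03. In ischemic cells with DMSO, *DUSP6* led at 6.61, and *DUSP5* (5.93), *DUSP1* (5.90) and *DUSP10* (5.85) had all passed *DUSP4* (5.29). Without division by length *DUSP4* (8.15) stayed above *DUSP5* (7.27), *DUSP1* (6.91) and *DUSP10* (7.35) there. The order thus depends on the exon length used, the union over all isoforms in GENCODE. *DUSP16* stayed low at 1.85 and 1.803, and *DUSP2* was lowest in both, at -0.24 and -1.62. In untreated cells *DUSP6* (4.70) was already above *DUSP4* (4.58) in the regular condition. In untreated ischemic cells *DUSP6* (5.47), *DUSP1* (5.06) and *DUSP10* (4.81) were above *DUSP4* (4.50 per kilobase), while *DUSP5* (4.01) was not.

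VX745 moved few of these genes past the threshold in the ischemic condition, but *DUSP10* fell. Of the 8 members, 1 fell and 0 rose, and 5.26% of all genes changed (4.35% higher and 0.906% lower). *DUSP10* read 6.77 and 6.71 with VX745 against 7.33 and 7.38 with DMSO. The libraries did not overlap, and the log2 difference was -0.61 (SE 0.07, adjusted p = 1.55e-05, limma). With quantile normalization it was -0.51, under 1.5-fold.

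The other members shifted by less than 1.5-fold with VX745, and in both directions. *DUSP16* read 5.13 and 5.20 with VX745 against 4.58 and 4.70 with DMSO in ischemic cells, a log2 difference of 0.52 (SE 0.09, adjusted p = 0.000454, limma). *DUSP7* read 5.88 and 5.90 against 5.51 and 5.59, with 0.34 (adjusted p = 0.00348, limma), and *DUSP6* read 8.26 and 8.28 against 8.50 and 8.61, with -0.29 (adjusted p = 0.00177, limma). The inhibited and control libraries of each of these 3 genes did not overlap. The log2 differences of *DUSP1* (-0.25), *DUSP5* (-0.18) and *DUSP4* (-0.17) had adjusted p of 0.042, 0.0453 and 0.0461 in limma. The median over the 8 members was -0.18, against 0.00 over all genes.

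MK25 had its largest effects on *DUSP5* and *DUSP10* in the ischemic condition. Of the 8 members, 2 fell and 0 rose, and 9.67% of all genes changed (7.02% higher and 2.65% lower). *DUSP5* read 5.99 and 5.97 with MK25 against 7.27 and 7.27 with DMSO, a log2 difference of -1.29 (SE 0.07, adjusted p = 3.26e-10, limma). *DUSP10* read 6.30 and 6.45 against 7.33 and 7.38, a log2 difference of -0.98 (SE 0.07, adjusted p = 3.66e-08, limma). For both genes the libraries were well apart, and the levels with MK25 were still above those of every regular library.

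*DUSP6* read 8.17 and 8.01 with MK25 in ischemic cells, a log2 difference from DMSO of -0.46 (SE 0.06, adjusted p = 1.08e-05, limma). *DUSP16* read 4.28 and 4.30, a difference of -0.35 (adjusted p = 0.0055, limma). Neither reached 1.5-fold, though the libraries did not overlap with DMSO. *DUSP1*, by contrast, read 6.96 and 6.94 with MK25 and overlapped with DMSO. Its log2 difference was 0.04 with a 95% interval from -0.14 to 0.22, so a fall of the size seen in *DUSP5* lay outside the interval. *DUSP2* read -0.99 and -1.50, and its difference of -0.57 had a wide interval, from -1.28 to 0.14. The intervals were narrow for *DUSP7* (-0.19 to 0.13) and *DUSP4* (-0.15 to 0.11).

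In the regular condition no member passed the threshold with either inhibitor. With VX745, 0 of 8 members changed, 2 had an unadjusted p under 0.05, and 0.0998% of all genes changed. *DUSP4* read 7.73 and 7.82 against 7.99 and 8.13 with DMSO, a log2 difference of -0.28 (adjusted p = 0.0547, limma), and *DUSP6* had -0.18 (adjusted p = 0.167, limma). With MK25, 0 of 8 changed, 2 had an unadjusted p under 0.05, and 2.49% of all genes changed. *DUSP10* read 5.63 and 5.66 with MK25 against 5.23 and 5.42, a log2 difference of 0.32 (SE 0.07, adjusted p = 0.00923, limma) that is under 1.5-fold and opposite in sign to its fall in ischemic cells. *DUSP5* read 4.496 and 4.35 against 4.30 and 4.38, with overlap, and its log2 difference had an interval from -0.05 to 0.22. Fits of voom to the recovered reads also gave 0 members with either inhibitor.

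**Figure D2:**
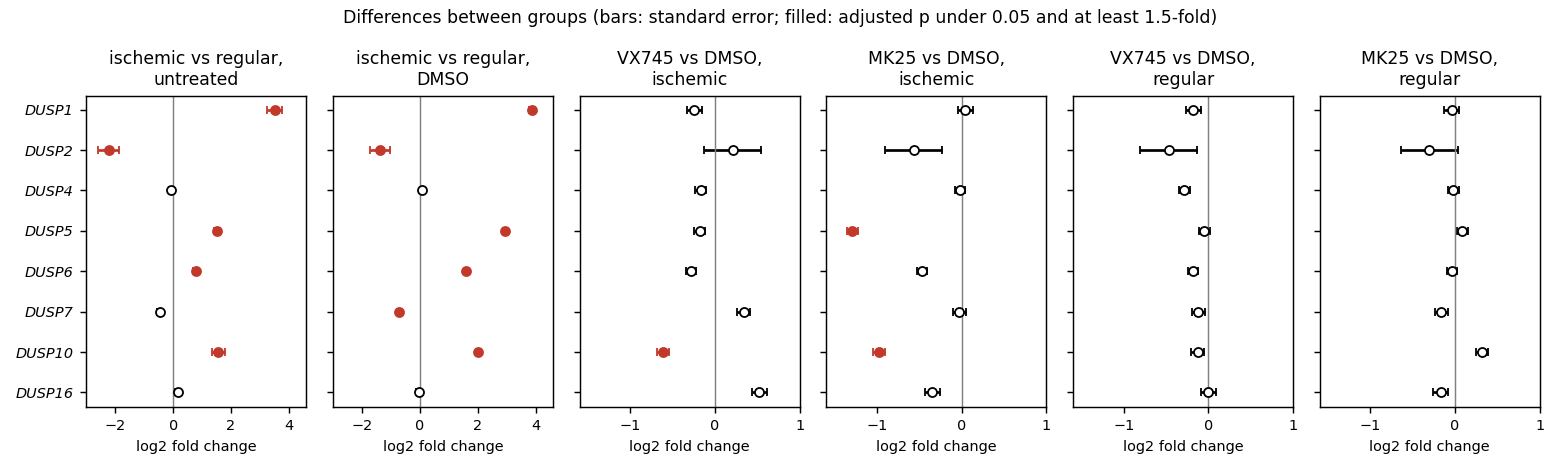
Log2 fold change of each member (horizontal axis, with its standard error) in 6 comparisons, 2 of ischemic with regular culture and 4 of an inhibitor with DMSO, with 2 libraries a group. Filled points passed the test at 1.5-fold or more, and the horizontal scale is wider in both ischemic panels. *DUSP5* and *DUSP10* are the filled points with MK25, *DUSP10* alone with VX745, and no point is filled in the regular condition.

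Set against each other in ischemic cells, the inhibitors differed most on *DUSP5* and *DUSP16*. The labels do not give their doses. The methods list a higher concentration for MK25 than for VX745, without tying either to these libraries. The comparison is thus of the treatments as they were applied. Of the 8 members, 2 were lower with MK25 than with VX745 and 0 were higher, and 3.96% of all genes differed (1.75% higher and 2.20% lower). *DUSP5* was lower with MK25 by a log2 difference of -1.11 (SE 0.07, adjusted p = 2.81e-09, limma), and *DUSP16* by -0.87 (SE 0.09, adjusted p = 2.33e-06, limma). For *DUSP16* the inhibitors stood on opposite sides of DMSO, the libraries with VX745 above it and those with MK25 below it. *DUSP10* differed by -0.36 (adjusted p = 0.00183, limma) and *DUSP7* by -0.37 (adjusted p = 0.00245, limma), both under 1.5-fold. The difference of *DUSP4* had an adjusted p of 0.109 and an interval from 0.02 to 0.28.

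The ischemic difference of each member could also be compared across treatments, which tests whether an inhibitor acted differently in the 2 conditions. Both inhibitors were compared with the same 4 DMSO libraries, so their values are given side by side. *DUSP5* was higher in ischemic cells by 2.93 log2 units with DMSO, by 2.80 with VX745 and by 1.55 with MK25, so that 53.0% of the DMSO difference remained with MK25. *DUSP10* was higher by 2.03 with DMSO, by 1.54 with VX745 (76.0% of DMSO) and by 0.73 with MK25 (36.1%). *DUSP6* was higher by 1.61, 1.501 and 1.17 (73.1% with MK25). *DUSP1* kept nearly the whole difference, with 3.87, 3.80 and 3.95.

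The interaction of MK25 with culture, which is the difference between its effects in ischemic and regular cells, passed the test for *DUSP5*, *DUSP10* and *DUSP6*, all lower. These are 3 of 8 members, and 24.4% of all genes had an interaction with MK25 at an adjusted p under 0.05 (10.5% higher and 13.9% lower). For *DUSP1* the interaction was 0.08, with an interval from -0.18 to 0.34. The interaction of VX745 passed for *DUSP10*, which was lower, and for *DUSP16* and *DUSP7*, which were higher, and 11.8% of all genes had such an interaction. Without the trend of the variance on the level none of these 3 passed, with adjusted p of 0.0612 for *DUSP10*, 0.0674 for *DUSP16* and 0.0765 for *DUSP7* in limma. The calls of *DUSP7* and *DUSP16* were also lost on leaving out any 1 of 4 libraries, namely ischemic VX745 replicate 2, ischemic DMSO replicate 1, regular VX745 replicate 1 or regular DMSO replicate 2, and the count of members was then 1.

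**Figure D3:**
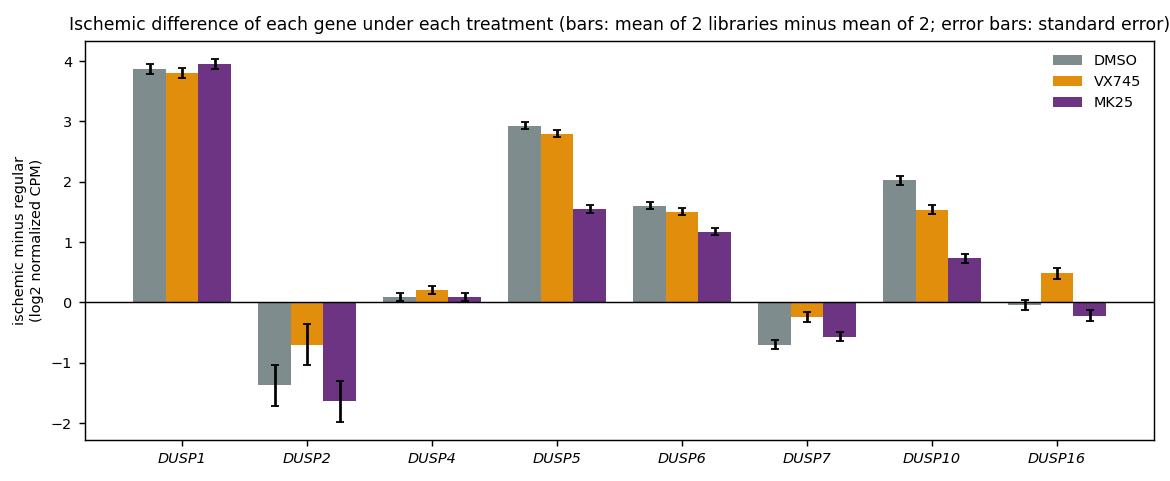
Ischemic minus regular level of each member, in log2 normalized CPM, with DMSO, VX745 and MK25 (bars, each the mean of 2 libraries minus the mean of 2, with standard errors from the fit). The bars of *DUSP1* are alike in height at 3.80 to 3.95, those of *DUSP5* and *DUSP10* are shortest with MK25 at 1.55 and 0.73, and *DUSP2* and *DUSP7* lie below 0.

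The order of the 6 groups of the second experiment differed between members. *DUSP10* was highest in ischemic DMSO, then in ischemic VX745, ischemic MK25 and regular MK25, with no overlap between neighbours, while regular DMSO and regular VX745 overlapped at the low end. *DUSP5* had the same first 3 groups in the same order, and its 3 regular groups overlapped. For *DUSP6* the ischemic groups also ran from DMSO over VX745 to MK25 without overlap. *DUSP1* had ischemic MK25 and ischemic DMSO overlapping at the top, and ischemic VX745 just under them. *DUSP16* ranged from ischemic VX745 at the top to ischemic MK25 at the bottom, with the ischemic DMSO and the regular groups between.

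Over the 12 libraries of the second experiment, the members that rose tracked each other. Pearson's r between *DUSP5* and *DUSP6* was 0.98, between *DUSP1* and *DUSP6* 0.98 and between *DUSP5* and *DUSP10* 0.97, while *DUSP2* ran with *DUSP7* (0.91) and against *DUSP1* (-0.89). The highest r of *DUSP16* with another member was 0.33, with *DUSP5*. These points share libraries and fall into an ischemic and a regular cluster, so a high r describes that contrast as well. Of 10028 genes with a mean level of at least 3, 1950 had an r over 0.9 with *DUSP1*, 1446 with *DUSP5*, 1820 with *DUSP6* and 1248 with *DUSP10*, but only 7 with *DUSP16* and 0 with *DUSP4*.

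The genes most like each member were *ICAM5*, *VPS37C* and *DEPP1* for *DUSP1*, *ETS1* (an ERK-regulated transcription factor), *TRIM25* and *PLAUR* (the urokinase receptor) for *DUSP5*, and *TMEM158*, *MYADM* and *ARHGEF2* for *DUSP6*. For *DUSP10* they were *NARS1* (an aminoacyl-tRNA synthetase), *XBP1* (a transcription factor of the unfolded protein response) and *IL1RAP* (a subunit of the interleukin-1 receptor), with r of 0.99 each. For *DUSP16* they were *PAK1*, *CCN2* and *PXN*, with r of 0.96, 0.93 and 0.92. Those of *DUSP2* included *ALKBH8* and *CDC7*, those of *DUSP7* were *ZBTB47*, *NCEH1* and *FJX1*, and those of *DUSP4* were *FXR2*, *CPNE8* and *TXNDC11*, at an r of no more than 0.86. By Spearman's rho, 1 of the 24 was again among the 3 nearest, *ICAM5* for *DUSP1*.

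The ERK output genes, a list of 16 feedback regulators and targets of the ERK pathway of which 15 were listed, were read beside *DUSP5* and *DUSP6*. In untreated ischemic cells 6 of 15 rose and 2 fell, and with DMSO 8 rose and 2 fell, with a median log2 difference of 0.28 and 0.76, against -0.01 over all genes in both. Over all genes, 21.3% rose and 20.2% fell in untreated cells, and 18.1% rose and 17.9% fell with DMSO. *SPRY1*, an inhibitor of receptor tyrosine kinase signaling, had the largest rise, by 3.29 and 3.55 log2 units, and *CCND1* (cyclin D1) fell by 1.55 and 1.07 and the ephrin receptor *EPHA4* by 1.13 and 1.21. The ETS factor *ETV4* and the AP-1 subunit *FOSL1* rose in both, by 1.07 and 1.27 and by 1.30 and 1.40. *EGR1*, an immediate early transcription factor, rose by 2.36 with DMSO (SE 0.11). In untreated cells its difference was only 0.06 (SE 0.53, adjusted p = 0.93, limma), so its rise was seen in the second experiment alone.

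With MK25 in ischemic cells 5 of the 15 ERK output genes fell and 1 rose, with a median log2 difference of -0.24, against 0.00 over all genes, of which 2.65% fell and 7.02% rose. The 5 were *EGR1* (-2.37 log2 units, SE 0.11, adjusted p = 1.37e-10, limma), *SPRY4* (-0.92), *CCND1* (-0.89), *SPRY2* (-0.79) and *PHLDA1* (-0.71), while *SPRY1* rose by 0.78. *ETV4* and *FOSL1*, which had risen with ischemia in both experiments, had -0.15 and -0.49 with MK25, both under 1.5-fold. With VX745 0 of 15 passed the threshold in ischemic cells, where 5.26% of all genes changed. Shifts under 1.5-fold went both ways, such as *EGR1* at -0.55 (adjusted p = 0.00139, limma) and *EPHA2* at 0.42 (adjusted p = 0.000193, limma). The median with VX745 was 0.07. In the direct comparison of the inhibitors 5 of 15 were lower and 1 was higher with MK25, *EGR1* lowest at -1.82 and *SPRY1* highest at 0.63, against 2.20% lower and 1.75% higher over all genes. In the regular condition *SPRY1* alone rose with MK25, by 1.30, where 2.49% of all genes changed. There 0 of 15 changed with VX745, against 0.0998% of all genes. For the MK25 interaction, 8 of 15 were lower (*EGR1* most, at -1.98) and 1 was higher (*EPHA4*, at 0.58), against 13.9% and 10.5% of all genes. For the VX745 interaction 5 were higher, *EPHA2* most at 0.62, and 0 were lower. Over all 14024 genes 811 were higher and 842 lower, 11.8% in either direction.

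**Figure D4:**
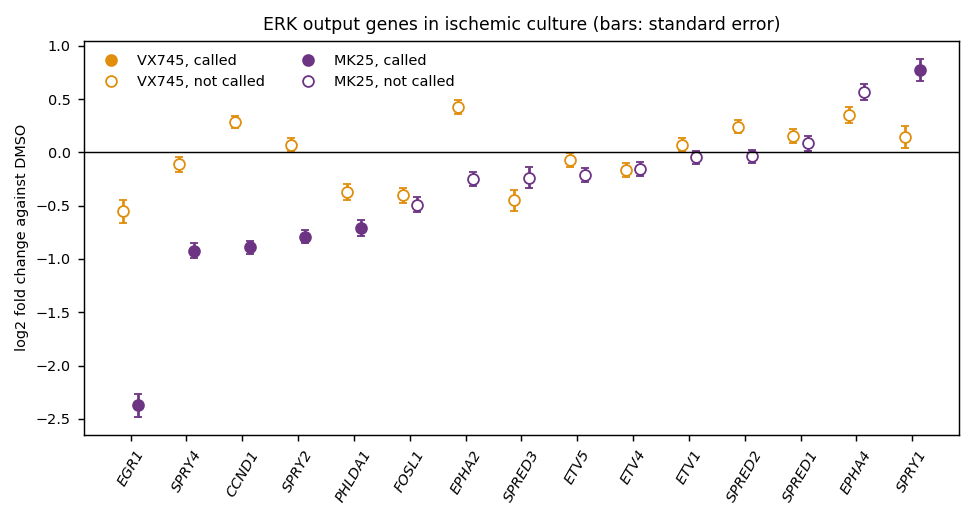
Log2 fold change of the 15 listed ERK output genes against DMSO in ischemic cells, with VX745 (orange) and MK25 (purple), and standard errors. Filled points passed the test at 1.5-fold or more, of which MK25 has 6 and VX745 has 0, and *EGR1* with MK25 is lowest at -2.37. Over all genes, 9.67% passed with MK25 and 5.26% with VX745.

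Several kinases upstream of the MAPKs changed. Among 7 MAP2 kinases, all listed, 2 rose and 2 fell in ischemic cells of both experiments, where 41.4% and 36.0% of all genes changed. *MAP2K1*, which phosphorylates ERK, rose by 1.497 and 1.77 log2 units and *MAP2K5*, which phosphorylates ERK5, by 0.83 and 0.85, while *MAP2K3* and *MAP2K6*, the kinases of p38, fell by 1.01 and 0.91 and by 2.46 and 1.51. *MAP2K6* rose with VX745 by 2.22 in ischemic and by 0.92 in regular cells, and with MK25 by 1.59 and 0.70. In ischemic cells *MAP2K3* also rose with VX745, by 0.81. Among the MAP kinases themselves, *MAPK7* (ERK5) rose in ischemic cells by 2.38 without inhibitors and 1.97 with DMSO. It alone of the listed kinases (10 in the first and 11 in the second experiment) rose, as did 21.3% and 18.1% of all genes. *MAPK14*, which encodes p38α, fell by 0.64 without inhibitors and had -0.45 with DMSO, under 1.5-fold. *MAPK13* (p38δ), not listed in the first experiment, fell by 1.01 with DMSO (SE 0.34). It was scarce, with mean levels of -1.12 in ischemic and -0.10 in regular cells, both under 1 CPM.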

How the data were processed

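RNA of 16 LN229 libraries was sequenced by the authors (SMART-Seq mRNA and Nextera XT libraries), aligned to GRCh38 with HISAT2 and analysed with edgeR in Galaxy. The deposited values are log2 normalized CPM per gene, listed by Entrez identifier and normalized apart in each experiment, and they were used as deposited. The counter and its version are not given in the sources used here. Identifiers were matched to symbols (99.4% and 99.3%), and the columns of the tables were assigned to samples by the group and replicate in their names. Undoing the logarithm gave whole reads plus an offset for 100% of the values (tolerance 0.01), and from these the depth of 20122017 to 37562668 reads per library. A floor of 3 reads corresponds to a log2 level of -2.71 to -2.16 and covers counting error only. Gene positions and promoters are those of RefSeq on GRCh38.p14.

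Differences were tested with limma 3.58.1 in R 4.3.3 (1 mean per group, variance trend), fitted on all genes of an experiment (4 and 12 libraries), with two-sided p-values and a Benjamini-Hochberg adjustment across every listed gene in each of 9 comparisons. The test that the methods name takes counts, and limma was used because the values are on a log2 scale. A gene was counted as changed at an adjusted p under 0.05 and at least 1.5-fold, and an interaction at an adjusted p under 0.05. In simulated data of each experiment 97% and 96% of genes changed by 1 log2 unit were called with the right sign. Genes named are the members, the 3 genes with the highest Pearson's r to each member, and in each list the changed genes with the largest rise and fall of a comparison. Other list members were named after their values were seen. Some genes that this rule selects are not reported here. The members and lists were chosen with earlier results of these data known.

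Libraries of a group differed by more than sampling noise (chi-square per gene of 3.29 to 9.40). Whether replicate numbers pair the libraries is not known from the labels. Same-numbered libraries of 2 groups had a correlation of deviations of 0.19 in the first experiment, where 1 pair cannot settle it. In the second it was -0.10 to 0.18 (2 of 15 pairs over 0.1). Alternatives were no fold threshold or at least 2-fold, a filter at a mean of 1 CPM, median centring, quantile normalization, no variance trend, a replicate block, the groups compared alone, voom on recovered reads, each library left out, and Spearman's rho for the nearest genes.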

Additional observations from a re-analysis of the deposited data

Results flagged for a closer look

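The effect of MK25 differed between the ischemic and the regular condition, by a test of the difference itself, in 3 members. Over all genes, 24.4% had an interaction with MK25. For *DUSP5* the interaction was -1.38 on the log2 scale (SE 0.09, adjusted p = 2.23e-08, limma), from a difference of -1.29 in ischemic and 0.08 in regular cells. For *DUSP10* it was -1.29 (SE 0.10, adjusted p = 2.77e-07, limma), from -0.98 and 0.32, so that the gene lay on opposite sides of DMSO in the 2 conditions. For *DUSP6* it was -0.43 (SE 0.08, adjusted p = 0.00131, limma), from -0.46 and -0.03. The median interaction over the 8 members was -0.22, against 0.00 over all genes.

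The effect of VX745 differed between the conditions in 3 members as well, and 11.8% of all genes had such an interaction. These calls were fragile: none of the 3 passed without the variance trend. Those of *DUSP16* and *DUSP7* were also lost in some of the fits that left out 1 library. *DUSP10* had an interaction of -0.49 (SE 0.10, adjusted p = 0.00723, limma), from -0.61 in ischemic and -0.13 in regular cells. *DUSP16* had 0.52 (SE 0.13, adjusted p = 0.0144, limma), with 0.52 in ischemic cells and an interval from -0.19 to 0.19 in regular cells. *DUSP7* had 0.46 (SE 0.11, adjusted p = 0.0126, limma), from 0.34 and -0.12. Both inhibitors share the 4 DMSO libraries, so the 2 interactions of *DUSP10* are not separate evidence.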

How the results depend on the processing

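Groups held 2 libraries, which limits the precision of every difference, and *DUSP2* at 5 to 59 reads was the least precise member. Of the alternatives other than leaving out a library, 474 values of single members kept their direction and their side of the threshold. With a replicate block the counts of members called stayed at 5, 6, 1, 2, 0, 0, 2, 3 and 3 in the 9 comparisons, and no other call changed with the pairing. Without a fold threshold the count in ischemic cells was 7 with VX745 (2 higher, 5 lower), 4 with MK25 and 6 between the inhibitors (1 higher, 5 lower), and 1 with MK25 in regular cells. Over all 14024 genes the counts without a fold threshold were 1958 higher and 2093 lower with VX745, 2770 and 3080 with MK25 and 1153 and 1427 between the inhibitors in ischemic cells, and 981 and 731 with MK25 in regular cells. A filter at a mean of 1 CPM removed *DUSP2*, which left 4 members called in untreated cells (4 higher, 0 lower) and 5 with DMSO (4 higher, 1 lower). At 2-fold or more the count of members in ischemic cells was 0 with VX745, 1 with MK25 and 1 between the inhibitors. Over all genes it was 159 higher and 34 lower, 290 and 94, and 67 and 108. Quantile normalization left 0 members with VX745 in ischemic cells (*DUSP10* at -0.51, adjusted p = 0.00015 in limma but under 1.5-fold), and brought *DUSP2* with MK25 past the threshold at -0.999 (adjusted p = 0.0342, limma). It also moved the split over all genes from 610 higher and 127 lower to 322 and 192 with VX745, and from 985 and 371 to 629 and 486 with MK25. The cause was not tested. Without the variance trend the VX745 interaction had 0 members. Leaving out 1 library gave 4 to 5 members in untreated cells and 1 to 3 for the VX745 interaction.

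The values that changed sign belonged to members that had not passed the test, all close to 0 on the log2 scale. With quantile normalization these were *DUSP4* at -0.12 for ischemia with DMSO, 0.11 with MK25 in ischemic cells and 0.11 for the MK25 interaction, *DUSP2* at -0.10 with VX745 in ischemic cells, *DUSP16* at 0.012 with VX745 in regular cells (0.0048 with median centring), and *DUSP6* at 0.014 and *DUSP1* at 0.030 for the VX745 interaction. On leaving out a library, *DUSP16* ranged from -0.11 to 0.023 for ischemia with DMSO and from -0.13 to 0.13 with VX745 in regular cells. With MK25 in ischemic cells *DUSP7* ranged from -0.14 to 0.074, *DUSP1* from -0.0062 to 0.088 and *DUSP4* from -0.090 to 0.044. With MK25 in regular cells *DUSP1* ranged from -0.16 to 0.074 and *DUSP4* from -0.088 to 0.045. For the VX745 interaction *DUSP1* ranged from -0.18 to 0.048, and for the MK25 interaction *DUSP1* ranged from -0.033 to 0.20 and *DUSP4* from -0.069 to 0.066.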

Other observations

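Of 18 other phosphatases that act on MAP kinases or on their kinases, 15 were listed in each experiment, and 3 rose and 2 fell in untreated cells, while 3 rose and 3 fell with DMSO. These shares were near those over all genes, of which 41.4% changed in untreated cells and 36.0% with DMSO. The tyrosine phosphatase *PTPRR* rose by 2.74 log2 units in untreated cells and by 0.90 with DMSO, the small dual-specificity phosphatase *DUSP3* by 1.70 and 1.12, and *DUSP9*, a cytoplasmic relative of *DUSP6*, by 1.06 and 1.44. The serine/threonine phosphatase *PPP5C* fell by 0.78 and 0.70, *PPM1D* fell by 0.79 in untreated cells, and *PPP2CA* and *DUSP19* fell by 0.60 each with DMSO. *DUSP19* was scarce, with mean levels of 0.30 in ischemic and 0.90 in regular cells with DMSO (adjusted p = 0.0447, limma). *PTPRR* and *DUSP9* were scarce as well, at -0.69 and 0.42 in untreated regular cells. *DUSP19* rose in ischemic cells with VX745 by 0.73 and with MK25 by 0.85, and *PTPRR* rose with MK25 by 0.83 in ischemic and by 0.97 in regular cells. *DUSP3* rose with MK25 in regular cells, by 0.63. In ischemic cells its difference with MK25 was 0.48 (adjusted p = 7.08e-06, limma), under 1.5-fold.

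Of 11 kinases that MAPKs activate, 10 were listed. In ischemic cells 2 rose and 1 fell without inhibitors, and 2 rose and 0 fell with DMSO. Over all genes, 41.4% and 36.0% changed in these comparisons. *RPS6KA2* (RSK3) rose in ischemic cells by 3.25 log2 units without inhibitors and by 2.78 with DMSO, and *MKNK2*, a kinase of the translation factor eIF4E, by 1.55 and 1.16. *RPS6KA1* (RSK1) fell by 1.09 in untreated cells. *RPS6KA3* (RSK2) fell with MK25 in ischemic cells, by 0.65, where 9.67% of all genes changed. None of the 10 changed with VX745 in ischemic cells (5.26% of all genes) or in regular cells with VX745 (0.0998%) or MK25 (2.49%). Counts of 0 in 10 genes lie near these shares.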
